A study of Homo sapiens with 4 samples.

Results

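Genes that hypoxia-inducible factor (HIF) is known to switch on were followed across 4 Affymetrix expression arrays of HEK293 cells. The 10 genes are ANKRD37, HILPDA, DDIT4, VEGFA, ADM, BNIP3, PDK1, EGLN3, CA9 and KDM3A. They were picked by name, with their differences between replicate numbers and between treatments already known, so those differences are descriptions and support nothing. Of the 10 genes, 9 had a probe set that the platform annotation gives to that symbol alone, 19 probe sets in all, and CA9 was not analysed here. All 9 were among the 11865 tested genes, out of 19775 named genes, and 17 of their 19 probe sets lay above the signal filter of 70.5 described for the tests.

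HEK293 is a human embryonic kidney cell line transformed with adenovirus DNA. Every culture was grown in DMEM with 10% serum and then left overnight without serum. The LPA group (2 arrays) then received 1 µM lysophosphatidic acid, a phospholipid that signals through G protein-coupled receptors, for 2 h. The untreated group (2 arrays) is titled Vc, which the labels do not explain, with its treatment given as none. Replicate numbers 1 and 2 occur in both groups, and the labels do not say what a number marks or whether the arrays came from separate cultures. A p-value here thus compares a difference with array-to-array spread that may hold no variation between separate cultures. Each comparison was fitted without the other factor. Its spread therefore also holds the gap between numbers (for LPA) or between treatments (for the number). Oxygen was not a variable named by the labels.

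When oxygen is present, prolyl hydroxylases of the EGLN family modify the HIF alpha subunits, and the VHL ubiquitin ligase then marks them for destruction. When oxygen is short, the alpha subunits persist, pair with ARNT and bind short DNA motifs, ACGTG or GCGTG, near their target genes. The targets move pyruvate away from mitochondria, remove mitochondria, restrain growth signalling and call in blood vessels. Several of them also answer to other signals, among them amino acid and endoplasmic reticulum stress.

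The DNA just before the transcription start is shown because it can carry those motifs. The motifs were not used to pick the genes, but genes known as HIF targets are not an independent sample for HIF motifs. The shares below are therefore descriptions. RefSeq promoter windows of build GRCh38.p14, each from 250 bases before to 50 after a start, were found for 8 of the 10 genes, and VEGFA and HILPDA had none in the table. PDK1 and KDM3A have 2 starts each, which makes 10 windows. ACGTG or GCGTG occurred on either strand in 8 of the 10, from 7 genes, against 48.4% of all 35116 windows. The same KDM3A match is counted in both windows of that gene. ACGTG by itself occurred in 5 of the 10, against 21.4% of all windows, and GCGTG by itself in 5 of the 10, against 36.5%. A match is a description of letters, not evidence of binding. Each stretch below reads 5′ to 3′ on the gene's strand and ends before the start, with the motif letters in capitals. On the opposite strand the motifs read CACGT and CACGC, and CACGTG holds one on each strand, overlapping.
ANKRD37: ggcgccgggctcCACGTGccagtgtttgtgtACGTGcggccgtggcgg
BNIP3: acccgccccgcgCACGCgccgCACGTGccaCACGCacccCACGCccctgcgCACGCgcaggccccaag
PDK1: cctgctgcccgcCACGTccctCACGTacc
DDIT4: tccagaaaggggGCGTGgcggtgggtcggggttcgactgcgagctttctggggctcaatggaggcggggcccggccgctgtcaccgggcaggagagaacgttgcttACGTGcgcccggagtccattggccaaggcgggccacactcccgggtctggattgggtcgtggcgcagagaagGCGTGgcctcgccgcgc
ADM: gagcaggagcgcGCGTGgctgaggaaaga
KDM3A: ccgggaggctgtGCGTGtcttgtgagagc
CA9: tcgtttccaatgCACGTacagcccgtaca

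The ANKRD37 stretch (chr4:185396667-185396714, plus strand) spans positions -174 to -127 from the start and holds 3 matches, a pair of them overlapping in CACGTG. The BNIP3 stretch (chr10:131982011-131982078, minus strand) is the densest, with 6 matches in 68 bases. The 2 matches of PDK1 (chr2:172556061-172556089, plus strand) begin 17 and 8 bases before one of its starts, and the window of its other start holds none. DDIT4 (chr10:72273693-72273887, plus strand) has 3 matches spread over the stretch and 1 more after the start. ADM (chr11:10304960-10304988), KDM3A (chr2:86441333-86441361) and CA9 (chr9:35673898-35673926), all on the plus strand, have 1 match each in the stretch shown. That of KDM3A lies 26 or 116 bases before its start, depending on which of its 2 starts is used. The window of EGLN3 holds no match, which says only that these letters are absent from those 300 bases.

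The arrays fall into a simple order for these genes: they read higher on both number 2 arrays than on both number 1 arrays, with or without LPA. This held for the brightest probe set of 9 of 9 measured genes, where 26.5% of all tested genes do the same, and for 16 of the 17 probe sets above the filter. Since the genes were chosen with this difference in view, nothing is read from the count. The median log2 difference, number 2 minus number 1, was 0.93 over the 9 genes and 0.014 over all tested genes, with 0.68 between the untreated arrays and 1.14 between the LPA arrays. The smallest of the 18 single differences was 0.20 (KDM3A, untreated) and the largest 1.79 (DDIT4, LPA). Number 2 exceeded number 1 by at least 1.5-fold in both treatments for 6 of the 9, where 2.87% of tested genes do and 2.18% are as far below. In a bulk extract, a larger share of responding cells and more RNA per cell cannot be told apart.

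**Figure D1:**
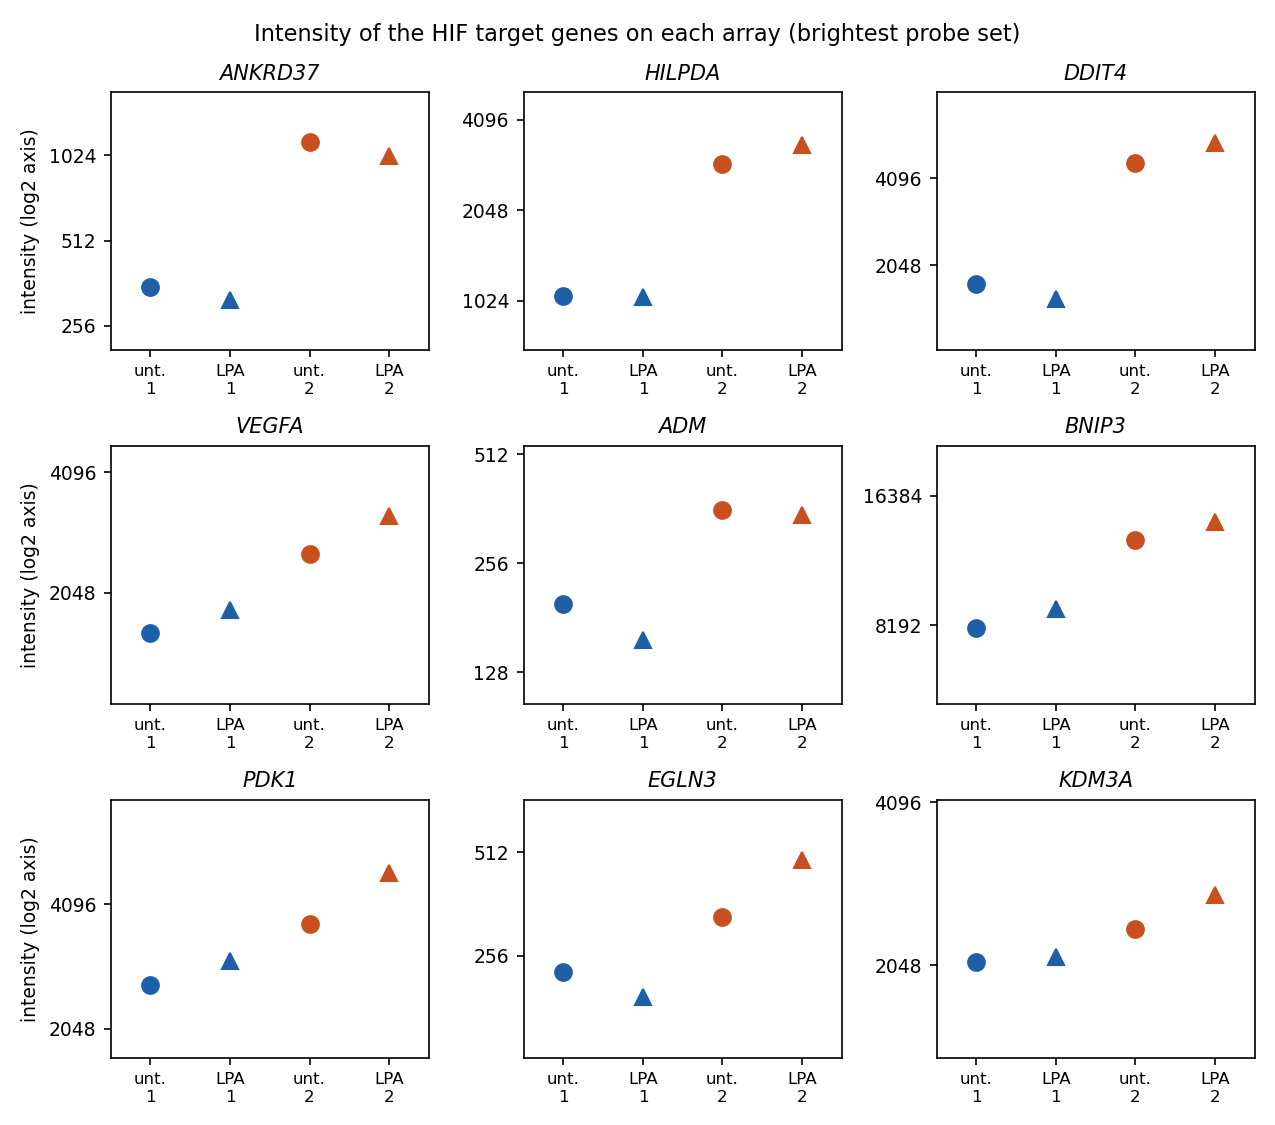
Intensity of the brightest probe set of each of the 9 measured genes (log2 axis, a range of its own per panel) on the 4 arrays, 1 point per array, circles untreated, triangles LPA, blue for replicate number 1 and orange for number 2. In each panel both orange points lie above both blue points, by the widest margins for ANKRD37, HILPDA and DDIT4.

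ANKRD37, an ankyrin repeat protein, read 351 and 1144 untreated (numbers 1 and 2, in that order throughout) and 316 and 1016 with LPA. Its difference between numbers was nearly the same in both treatments, 3.25-fold untreated and 3.21-fold with LPA. On log2 values it stood 16th of 11865 genes in the mean difference between numbers. Its other probe set read between 3.51 and 10.7 on the 4 arrays, below the filter, and gives no usable value.

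HILPDA, a small lipid droplet protein that restrains the triglyceride lipase PNPLA2, read 1063 and 2908 untreated and 1053 and 3374 with LPA. Its second probe set gave the same order, with 692 and 2906 untreated and 933 and 3158 after LPA. Both probe sets thus separated the numbers with no overlap, by 2.73-fold untreated and 3.20-fold with LPA at the brighter one. The triglyceride lipase itself, PNPLA2, read 460 and 353 untreated and 337 and 453 after LPA, with the numbers going opposite ways in the 2 treatments. PLIN2, a coat protein of lipid droplets, read 2238 and 2415 untreated and 2237 and 2283 after LPA.

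DDIT4, also called REDD1, restrains the growth kinase mTOR through the TSC1 and TSC2 proteins. It read 1767 and 4609.7 untreated and 1565 and 5427 with LPA, a difference between numbers of 2.61-fold untreated and 3.47-fold with LPA. These 3 genes, ANKRD37, HILPDA and DDIT4, stood within the first 25 of 11865 tested genes in the mean log2 difference between numbers. Among the proteins through which DDIT4 acts, MTOR read 596 and 284 untreated and 668 and 483 after LPA, lower on number 2. TSC1 read 1184 and 1003 untreated and 1073 and 879.9 after LPA, also lower on number 2. TSC2 read 334 and 352 untreated and 358 and 253 after LPA, with the numbers going opposite ways in the 2 treatments. MTOR, TSC1 and TSC2 did not pass the test described for the wider lists. DDIT4L, the paralog of DDIT4, read 139 and 133 untreated and 179 and 131 after LPA.

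Among the secreted factors, VEGFA, the main growth factor of blood vessels, read 1622 and 2558 untreated and 1859 and 3176 with LPA at its brightest probe set. Its groups by number did not overlap, with 1.58-fold untreated and 1.71-fold with LPA. The other VEGFA probe sets were less even. The second read 467 and 578 untreated and 443 and 668 after LPA, the third 167 and 173 untreated and 119 and 234 after LPA. The dimmest read 126 and 122 untreated and 70.9 and 69.3 after LPA, so it differed by treatment and not by number. Its LPA values lay near the filter signal of 70.5. It was the only 1 of the 17 probe sets above the filter in which both LPA values lay below both untreated values, and no probe set had both above. ADM, the vessel-dilating peptide adrenomedullin, read 198 and 359 untreated and 157 and 348 after LPA, a difference between numbers of 1.81-fold and 2.21-fold. Of their receptors, the ADM receptor CALCRL, its partners RAMP2 and RAMP3 and the VEGF receptor KDR lay below the filter. The coreceptor NRP1, at 289 and 264 untreated and 259.7 and 263 after LPA, was nearly level over the arrays. The VEGFA receptor FLT1 read 146 and 131 untreated and 179 and 210.1 after LPA, and the coreceptor NRP2 132 and 90.6 untreated and 159.7 and 161 after LPA. In both, each LPA value lay above each untreated value, by a mean log2 difference of 0.49 for FLT1 and 0.55 for NRP2. Neither passed for LPA, 14.4% of tested genes have that order, and not every other probe set of FLT1 or NRP2 showed it.

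BNIP3, a receptor on mitochondria that marks them for autophagy, read 8055 and 12908 untreated and 8949 and 14275 with LPA. Its second probe set read 3212 and 5838 untreated and 3570.4 and 5457 after LPA. The difference between numbers at the brightest probe set was 1.60-fold in both treatments. BNIP3L, its paralog with the same role, read 3152 and 4266 untreated and 3591 and 5316 after LPA. Its mean log2 difference between numbers was 0.50, and its limma adjusted p of 0.0607 did not pass.

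PDK1, the kinase that shuts pyruvate dehydrogenase and so keeps pyruvate out of the citric acid cycle, read 2613 and 3679 untreated and 2988 and 4889 with LPA. The second PDK1 probe set read 252 and 539 untreated and 438 and 466 after LPA, and the third 210.3 and 412 untreated and 149.8 and 448 after LPA. All 3 separated the numbers, but the second only narrowly in the LPA arrays (log2 difference 0.088). The paralog PDK3 read 3415 and 3014 untreated and 3093 and 3085 after LPA at its brightest probe set, where it did not share the order. Of its 4 dimmer probe sets, 2 did, with 371 and 552 untreated and 434 and 544 after LPA at one of them. PDK4, another paralog, read 80.1 and 283 untreated and 126 and 195 after LPA, a mean log2 difference of 1.22 that did not pass (limma adjusted p = 0.0979). PDP1, the phosphatase that reopens the enzyme, was higher on number 2 (1524 and 2621 untreated, 1976 and 2714 after LPA, limma adjusted p = 0.0353). DLAT, a subunit of the enzyme itself, was lower (3006 and 2246 untreated, 3183 and 2265 after LPA, limma adjusted p = 0.0481).

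EGLN3 is a prolyl hydroxylase that both acts on HIF and is induced by it. It read 229 and 333 untreated and 193 and 486 with LPA, the least even of the 9 genes, with a difference between numbers of 1.45-fold untreated and 2.51-fold with LPA. Its second probe set read 160.0 and 222 untreated and 215 and 256 after LPA, a smaller difference in the LPA arrays (log2 0.25 against 1.33). KDM3A, a histone demethylase that needs oxygen, had the smallest difference between numbers, with 2071 and 2384 untreated and 2121 and 2755 after LPA. Its paralog KDM3B was lower on number 2 in both treatments (2134 and 1463 untreated, 1692 and 1502 after LPA, mean log2 difference -0.36). The second KDM3B probe set was also lower (-0.60). The paralog JMJD1C (1093 and 1097 untreated, 1366 and 1145 after LPA) was nearly level untreated and lower on number 2 with LPA at its brightest probe set. The other KDM3A probe set lay between 1.06 and 26.0, below the filter.

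**Figure D2:**
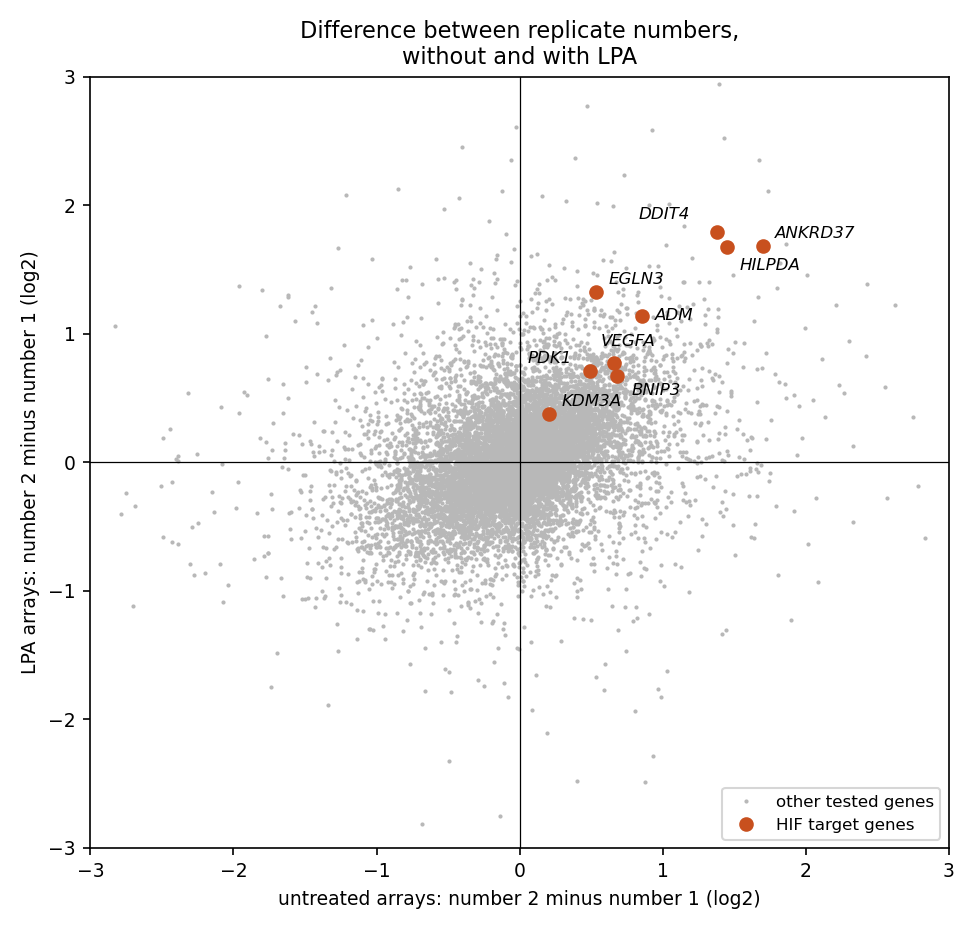
Log2 difference between replicate numbers (2 minus 1) in untreated cells (x axis) against the same difference in LPA cells (y axis) for the 11865 tested genes, grey, and the 9 HIF target genes, orange. The axes rest on different arrays, and 14 genes fall outside the limits of 3. All 9 orange points lie in the upper right, from KDM3A at 0.20 and 0.38 to ANKRD37 at 1.70 and 1.68.

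The comparison that the study's design names, LPA against no treatment, gave small values for the same genes. The log2 difference, LPA minus untreated, lay between -0.19 (ADM) and 0.30 (PDK1), with a median of 0.12 over the 9 genes and 0.0092 over all tested genes. Treatments overlapped for all 9 genes at their brightest probe sets, where both LPA values lie above both untreated values in 14.4% of tested genes and below them in 12.5%. No gene of the whole table passed in this comparison (limma, adjusted p under 0.05, 0 of 11865, 0%, with 207 at an unadjusted p under 0.05), so nothing is read from the count of 0 among these 9. The standard error of a member's difference ranged from 0.19 for KDM3A to 0.62 for ANKRD37, because the model without the number counts the gap between numbers as spread.

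Set within a number, the LPA differences were also small. They ran from -0.33 (ADM, number 1) to 0.54 (EGLN3, number 2), 1 array against 1 array each and so with no error of their own. LPA values were above untreated ones for 4 of 9 genes in number 1 and for 7 of 9 in number 2. The LPA difference of 3 genes, HILPDA, DDIT4 and EGLN3, changed sign between the numbers. Of all 11865 tested genes, 5907 were above in number 1 and 6323 in number 2, and 5524 changed sign. Nothing is thus read from the counts among the 9. The genes above in both numbers were VEGFA (0.20 and 0.31), BNIP3 (0.15 and 0.15), PDK1 (0.19 and 0.41) and KDM3A (0.034 and 0.21). ANKRD37 (-0.15 and -0.17) and ADM (-0.33 and -0.047) were below in both. The VEGFA probe sets of intermediate brightness were above in number 2 only, so the probe sets of the gene gave no single direction. The dimmest, whose LPA values lay near the filter signal, was below in both (-0.82 and -0.80). The second PDK1 probe set was above in number 1 and below in number 2 (0.80 and -0.21), and the third was below in number 1 (-0.49). The second BNIP3 probe set was also above in number 1 and below in number 2 (0.15 and -0.097). The second probe sets of HILPDA and EGLN3 were above in both numbers, unlike the brightest.

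**Figure D3:**
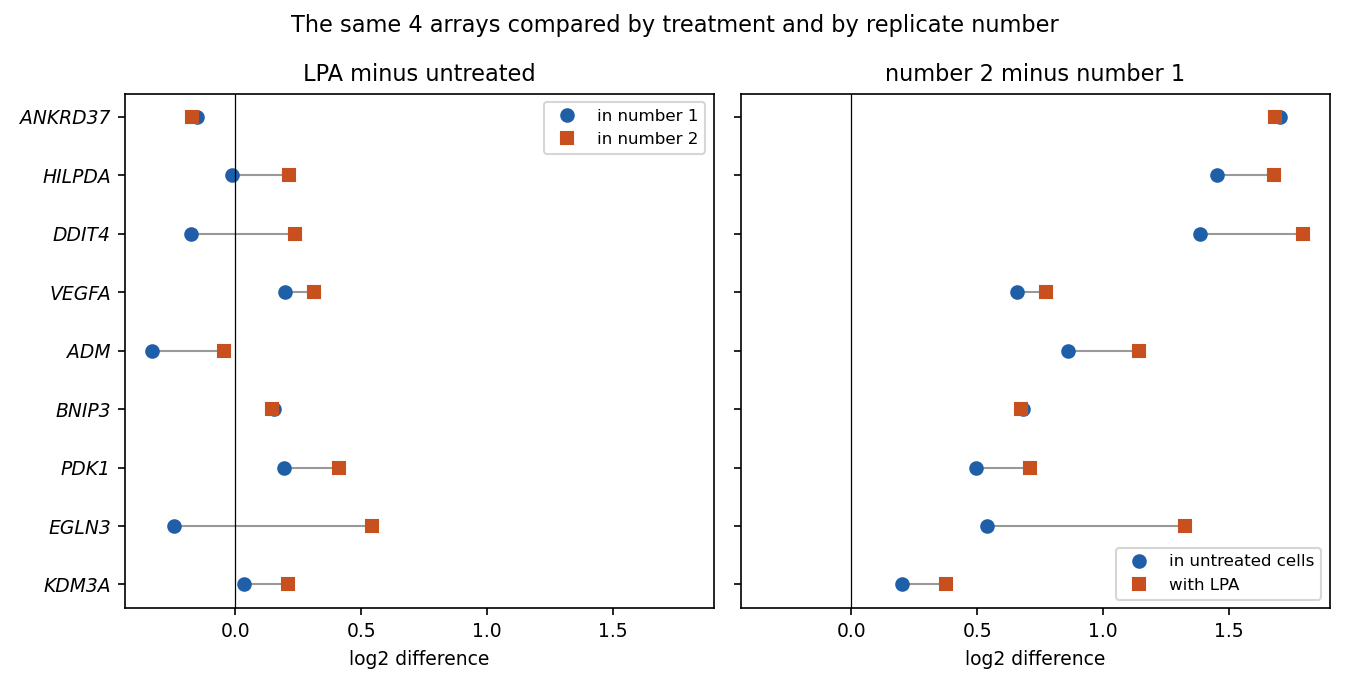
Log2 differences of the 9 genes at their brightest probe sets, LPA minus untreated within each replicate number (left) and number 2 minus number 1 within each treatment (right), on one shared axis; each symbol is 1 array against 1 array. The left panel spans -0.33 to 0.54 on both sides of 0, and the right panel 0.20 to 1.79.

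Both panels use the same 4 arrays, so they are not independent of each other. LPA number 2 stood apart in maximum intensity, 62508 against 93776 to 104012, and in the ACTB 3′-to-5′ intensity ratio, 18.8 against 12.6 to 13.6. Its GAPDH 3′-to-5′ ratio of 1.38 was close to the others, at 1.22 to 1.35. Its median intensity of 72.3 lay within theirs, 70.3 to 76.1. In the untreated pair, which leaves that array out, the median difference between numbers was 0.68 over the 9 genes and 0.0054 over all tested genes. The genes were chosen with this difference known, so nothing is read from it. For 7 of the 9 genes the difference between numbers was larger in the LPA pair, as for 6182 of all 11865 tested genes. The part of that array's quality was not tested. Of 6 genes that mark HEK293 cells, all were tested, among them vimentin (VIM), neurofilament (NEFL, NEFM) and keratin (KRT8, KRT18) genes. Their median difference between numbers was 0.12, with 2 of 6 above on both number 2 arrays. Of 6 markers of other cell types, the leukocyte gene PTPRC and the hepatocyte gene ALB lay below the filter. The 4 tested, COL1A1, CDH1, EPCAM and PECAM1, had a median difference of 0.23, with 2 of 4 above on both number 2 arrays (26.5% of all tested genes). Their part in the result was not tested.

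Genes for the proteins that sense oxygen and carry the signal went both ways between numbers. Of 19 genes for HIF subunits, hydroxylases, the VHL ligase and cofactors, 17 were tested. Their median difference between numbers was -0.087, with 4 above and 4 below on both number 2 arrays, where 26.5% of all tested genes are above and 24.1% below. HIF1A, the main oxygen-regulated subunit, which is controlled mostly through protein stability, read 8992 and 9638 untreated and 9881 and 9349 after LPA. EPAS1, the related HIF2 alpha subunit, read 842 and 903 untreated and 869 and 784 after LPA. ARNT, the shared partner, read 517 and 636 untreated and 525 and 660.4 after LPA, while 3 further probe sets of ARNT had mean log2 differences from -0.42 to 1.00.

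Across all genes, limma with the replicate number as its term called 197 of 11865 genes higher (1.66%) and 248 lower (2.09%) on number 2, two-sided with Benjamini-Hochberg adjustment. Without the intensity trend 0 genes passed (1869 at an unadjusted limma p under 0.05), with the mean of all probe sets of a gene 9 did, and without untreated replicate 1 it was 39, so each call between numbers depends on the model. Among the called genes 2 belong to the HIF system. CITED2, a HIF target that competes with HIF for its coactivators, was higher (321 and 691 untreated, 409 and 808 after LPA, limma adjusted p = 0.0241). At its second probe set the numbers overlapped, with 106 and 201 untreated and 217 and 263 after LPA. CREBBP, one of those coactivators, was lower (2391 and 1106 untreated, 1597 and 1010.3 after LPA, limma adjusted p = 0.0241), and its second probe set also read lower on number 2. EP300, the other coactivator, did not pass (809 and 488 untreated, 860.3 and 720.4 after LPA, limma adjusted p = 0.201). Of the hydroxylases, EGLN1 read 2637 and 2226 untreated and 2526 and 2405 after LPA, and EGLN2 lay below the filter. HIF1AN, which blocks coactivator binding, read 710 and 362 untreated and 582 and 458 after LPA (limma adjusted p = 0.109). VHL read 649 and 420 untreated and 661 and 863 after LPA, with no common direction.

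Beyond the named genes, a wider list of 60 HIF targets was described, 53 of them tested. It was written with a hypoxia list's earlier result between these arrays known. Its median difference between numbers was 0.32, with 0.25 untreated and 0.31 with LPA. Of the 53 genes, 42 were above 0, as were 6114 of all 11865 tested genes. On both number 2 arrays, 30 were above and 2 below, against 26.5% and 24.1% of all tested genes, and 7 passed as higher and 0 as lower. Of all tested genes, 1.66% passed as higher. The count of 7 was 0 without the intensity trend and 0 with the mean of all probe sets of a gene. With median centring 4 genes of the list passed as higher, and with no filter 4 of 58. With quantile normalization 10 passed as higher, with cyclic loess 9 and with a filter at the 60th percentile 10 of 46. Of all tested genes, 81 passed as higher with median centring and 94 of 19775 with no filter. With quantile normalization it was 248, with cyclic loess 261 and with the 60th percentile filter 236 of 7910. The list's median LPA difference was 0.045, and 0 of its genes passed in that comparison.

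Enzymes that modify collagen had the highest median among the wider lists, 0.63 over 6 genes. P4HA1, a collagen prolyl hydroxylase, read 2441 and 4177 untreated and 2776 and 4837 after LPA (limma adjusted p = 0.0121). PLOD2, a collagen lysyl hydroxylase, read 3672 and 5846 untreated and 4032 and 6885 after LPA (limma adjusted p = 0.0133), and its second probe set differed by as much. Both were higher on number 2 and had no overlap between numbers. P4HA2 did not pass (1026 and 1301 untreated, 873 and 1452 after LPA, limma adjusted p = 0.0681).

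Survival and signalling targets had a median of 0.40 over 15 genes, with 8 above and 2 below on both number 2 arrays (26.5% and 24.1% of all tested genes) and 3 passing as higher (1.66% of all). CXCR4, a chemokine receptor, read 399 and 1125 untreated and 563 and 1547 after LPA (limma adjusted p = 0.00924), and 2 further CXCR4 probe sets gave the same order. INSIG2, which restrains cholesterol synthesis, read 501 and 806 untreated and 461 and 839 after LPA (limma adjusted p = 0.0375). TMEM45A, a membrane protein, read 1387 and 2618 untreated and 1735 and 2708 after LPA (limma adjusted p = 0.0133). The brightest of the list were TFRC, the transferrin receptor, FAM162A and BNIP3L, with mean differences of 0.13, 0.16 and 0.50.

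Regulators of transcription and chromatin had a median of 0.38 over 9 genes, all 9 above 0 (6114 of all 11865 tested genes). BHLHE41, a repressor that is also part of the circadian clock, read 194 and 443 untreated and 207 and 396 after LPA (limma adjusted p = 0.0442). The 3 brightest, MXI1, JMJD6 and KDM4B, differed by 0.44, 0.34 and 0.095 and did not pass. Of the secreted factors on the wider list only STC2 and PGF were tested, and EPO, EDN1, ANGPTL4 and IGFBP3 lay below the filter.

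Glucose metabolism genes had a lower median, 0.14 over 21 tested genes, with 10 above and 0 below on both number 2 arrays, against 26.5% and 24.1% of all tested genes. The brightest, LDHA (lactate dehydrogenase), ENO1 (enolase) and PGK1 (phosphoglycerate kinase), had mean differences of -0.090, -0.087 and 0.0089. Each was higher on number 2 in untreated cells and lower on number 2 with LPA, the array with the low maximum intensity, whose part was not tested. SLC2A3, a glucose transporter, was the gene that passed, with 323 and 651 untreated and 371 and 604 after LPA (limma adjusted p = 0.0443).

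**Figure D4:**
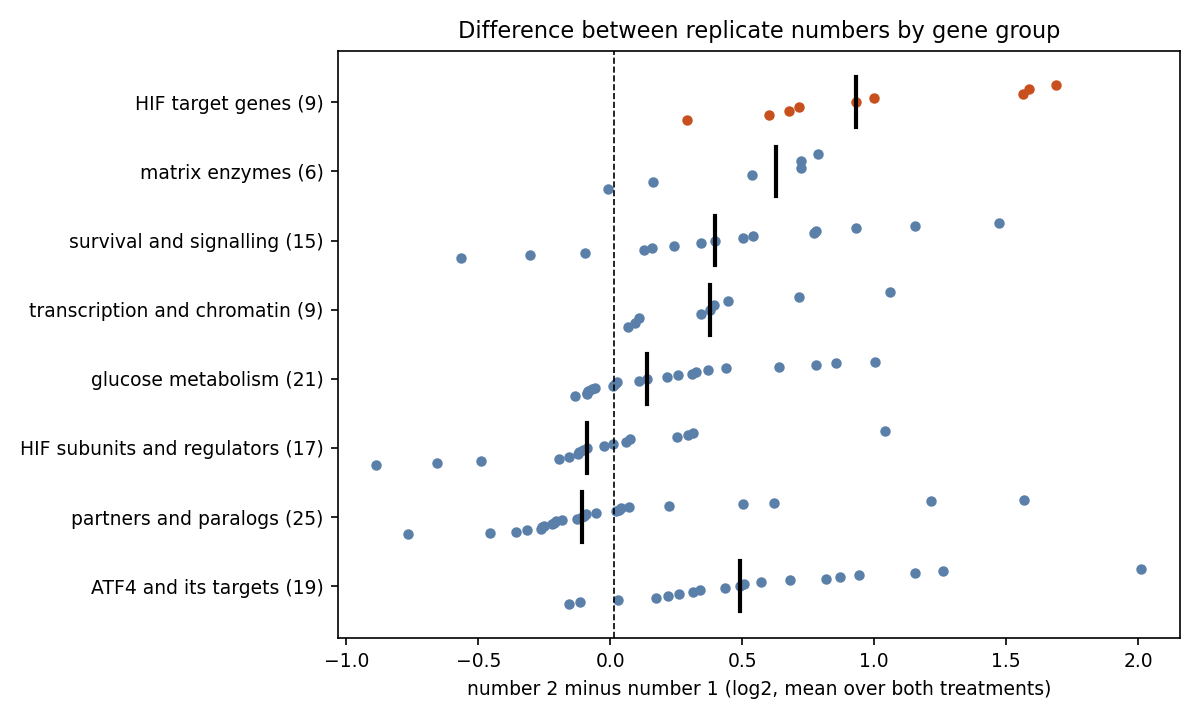
Log2 difference between replicate numbers (2 minus 1, mean over both treatments) for the 9 HIF target genes, orange, and for tested genes of the other lists, blue, 1 point per gene; black bars are medians, the dashed line is the median of all tested genes at 0.014, and the number of genes is given in brackets. Medians run from 0.93 for the HIF target genes down to -0.087 for HIF subunits and regulators and -0.11 for partners and paralogs.

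Receptors, paralogs and partners of the 9 genes had a median of -0.11 over 25 tested genes, with 6 above and 9 below on both number 2 arrays (26.5% and 24.1% of all tested genes). Besides PDP1 and DLAT, 1 of them passed. TXNIP, an arrestin-like protein that binds DDIT4, read 189 and 522 untreated and 187 and 598 after LPA (limma adjusted p = 0.0116).

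Targets of ATF4, the transcription factor of amino acid stress, were set beside these genes because DDIT4 and VEGFA are among the genes that pathway can also induce. Of 19 tested, ATF4 itself among them, 17 were above on both number 2 arrays (26.5% of all tested genes). Their median was 0.49, and 6 passed as higher (1.66% of all). The list's result between these arrays was also known in advance. CTH, an enzyme of cysteine synthesis, read 3142 and 8234 untreated and 3562 and 7789.8 after LPA (limma adjusted p = 0.000666). CHAC1, an enzyme that breaks down glutathione, read 122 and 393 untreated and 78.0 and 402 after LPA (limma adjusted p = 0.0121). ASNS, which makes asparagine, read 7254 and 13962 untreated and 7565 and 12225 after LPA (limma adjusted p = 0.011). SLC7A11, the cystine transporter, read 1374 and 2717 untreated and 1531 and 2587 after LPA (limma adjusted p = 0.00798). In these 4 genes the numbers were well apart in both treatments. CEBPB, a transcription factor, read 2105 and 3370 untreated and 2204 and 3549 after LPA (limma adjusted p = 0.0121). TRIB3, a pseudokinase, read 714 and 1497 untreated and 737 and 1296 after LPA (limma adjusted p = 0.0121), but its dimmer probe set had a mean log2 difference of -0.016. ATF4 itself read 44119 and 49420.5 untreated and 41079 and 31265 after LPA. The brightest others, MTHFD2 and PSAT1, differed by 0.17 and 0.22 and did not pass. The number of genes of the list that passed as higher was 0 without the intensity trend and 1 with the mean of all probe sets. It was 7 with quantile normalization and 7 with cyclic loess, where 248 and 261 of all 11865 tested genes passed as higher. The ATF4 and HIF lists share arrays, and STC2 and VLDLR stand on both, so the 2 shifts are given side by side only.

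The tested genes whose pattern over the 4 arrays lay closest to the median of the 9, by Euclidean distance of centred log2 values, were C1orf54 (distance 0.12), SPAG4 (0.12), SLC25A21 (0.14), POPDC1 (0.15) and EGFL7 (0.15). SPAG4, which stands on the wider HIF list, read 149 and 241 untreated and 129.5 and 293 after LPA. C1orf54 read 710 and 1125 untreated and 649 and 1364 after LPA. A distance over 4 arrays is a weak measure of likeness and many genes share a gap between numbers.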

How the data were processed

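Total RNA of 4 HEK293 samples was hybridised to arrays with 54675 probe sets. The deposited values are intensity on a linear scale, produced by the authors with MAS5 (named in the submitters' processing notes). The version and settings of MAS5 were not given in the sources used here. The mean after trimming 2% at each end was 500.1 on every array, so the arrays had been scaled before deposit. Precision is limited by the number of arrays. The platform annotation gave 1 symbol to 41097 probe sets, several to 1801 and none to 11777.

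Values were log2(intensity + 1), so folds of dim genes are understated. Each gene was represented by its brightest probe set, and the dimmest genes, under the 40th percentile of the mean log2 value, were not tested. Treatments, and separately replicate numbers, were compared with limma 3.58.1 in R 4.3.3 (intensity trend, two-sided, Benjamini-Hochberg, threshold 0.05), without the other factor. The model was also run on simulated data with noise drawn separately for each array. Those data lack the shared deviation of arrays with the same number, so nothing is read from that run. No list test was run. Alternatives were the scaling, the pseudocount, the filter, the probe set summary, the trend, a block and leaving out each array.

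The genes, lists and tests were chosen with earlier results of these data known. All 10 genes were named with every probe set. From each wider list the 3 brightest genes and those past the threshold were named, with any gene of the HIF system and partner lists, and the 5 genes closest in pattern.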

Additional observations from a re-analysis of the deposited data

Results flagged for a closer look

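The dim second probe set of ANKRD37 differed between replicate numbers in opposite directions, by -1.38 in untreated cells and by 0.43 with LPA (log2, number 2 minus number 1). The difference between treatments was not tested, and the probe set lay below the signal filter on all 4 arrays.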

How the results depend on the processing

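For the 9 measured HIF target genes, the direction of the difference between numbers was kept in 106 of 106 gene values over the alternatives, and that of the LPA difference in 88 of 106. Those genes were chosen with the difference between numbers known, and their numbers did not overlap. Leaving out 1 array could thus not turn that direction, while it could for LPA. Nothing is read from these counts. The genes' median difference between numbers stayed within its spread, and without 1 array it lay between 0.66 and 1.05. Their median LPA difference lay between -0.51 and 0.66 without 1 array, since each such set is unbalanced in the number, and so did the wider list's, between -0.16 and 0.27.

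Without 1 array, 0 to 3 genes passed for LPA and 39 to 631 for the number, and the wider list's difference between numbers lay between 0.29 and 0.37. The number comparison called 445 genes, 219 with no filter, 9 with the mean of all probe sets and 0 without the intensity trend. Its split of 197 higher and 248 lower became 81 and 283 with median centring. Median centring moved the wider list to 0.25 between numbers and 0.078 for LPA, and a filter at the 60th percentile moved it to 0.25 between numbers. GCGTG alone was held by 36.5% of promoter windows and ACGTG alone by 21.4%. The cause of these changes was not tested.

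A replicate block, with both factors in the model, called 32 of 11865 tested genes for LPA. These held 0 of the 9 genes and 1 of the 53 wider targets, higher. For the number it called 1382 of 11865, against 445 without the block. Of the 53 wider targets, 18 were called higher and 1 lower, against 7 and 0 without the block. Of the 19 genes of the ATF4 list, 9 were called higher, against 6 without the block. Arrays sharing a number deviated together (correlation 0.33 over genes), but with 2 pairs the numbers are not shown to pair cultures.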
